A study of Homo sapiens with 18 samples.

Results

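The D cyclins, their kinase partners and the inhibitors of these kinases were followed in a lung cancer line and in a pair of its drug-resistant sublines. The set holds 10 genes: the cyclins CCND1, CCND2 and CCND3, the kinases CDK4 and CDK6, and the inhibitors CDKN1A, CDKN1B, CDKN1C, CDKN2B and CDKN2C. Every probe of the array annotated to one of these symbols was taken. This gave 14 probes for 9 of the 10 genes, out of 18849 genes with a probe in all. CDKN2C is not analysed here. The 9 genes passed the filter on dim probes and were tested with 11820 genes in all, but CCND2 passed it through HCC827 arrays alone.

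The cells were HCC827, a human non-small cell lung cancer line with a mutant EGFR, and ER3 and T15-2, erlotinib-resistant sublines raised from it. Erlotinib blocks the tyrosine kinase of EGFR. After a night of starvation, each line received 1 µM erlotinib or its solvent DMSO for 12 h, so all 6 groups were starved cells at the same time point. RNA of 3 samples a group was measured on Illumina expression BeadChips, 18 arrays in all. The sources used here do not say whether a subline is 1 clone or whether a group's samples are separate cultures. The p-values therefore measure the spread between these samples, which may be technical.

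On each array between 15698 and 17869 of the 48803 probes were above background, meaning a detection p below 0.05. Arrays of a group correlated at 0.99 or more across genes. The 6 epithelial markers EPCAM, KRT7, KRT8, KRT18, KRT19 and CDH1 were above background on all 18 arrays, as were NKX2-1 and NAPSA, which mark lung epithelium. The surfactant genes SFTPB and SFTPA1 were above background on 13 and 4 arrays, and SCGB1A1 on 0. Of the leukocyte markers PTPRC was above background on 0 arrays, CD3E on 2 and CD14 on 17. Of the fibroblast markers COL1A2 and PDGFRB were on 0, COL1A1 on 6 and DCN on 8, and of the endothelial markers CDH5 was on 0, VWF on 9 and PECAM1 on 18. ER3 treated with DMSO, replicate 2, and T15-2 treated with erlotinib, replicate 3, deviated most from their groups, at opposite ends of a component that held 24.5% of the spread within groups.

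Cyclins of the D type are made in response to growth factor signals and bind CDK4 or CDK6. The complexes phosphorylate the retinoblastoma protein RB, which then releases E2F factors to transcribe the genes of DNA replication, and the cell passes from G1 into S phase. The inhibitors fall into the CIP/KIP family (p21, p27 and p57, encoded by CDKN1A, CDKN1B and CDKN1C), which bind cyclin-CDK complexes, and the INK4 family, among them p15 encoded by CDKN2B, which bind CDK4 and CDK6 themselves. In EGFR-mutant lung cancer cells the receptor drives the MAPK and PI3K pathways, which raise cyclin D1 and keep p27 low.

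Levels are normalised intensities on the log2 scale, and a difference is a log2 difference ± its standard error. All come from 1 limma model of the 18 arrays, 3 to a group. Each adjusted p is limma's, corrected by the Benjamini-Hochberg method over the 11820 genes. A gene was called, and is said to have risen or fallen, where it lay below 0.05. These are RNA levels of whole cultures, in which fewer cells of a type and less RNA per cell cannot be told apart. They say nothing of protein.

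In HCC827 erlotinib changed 5 of the 9 genes: CDKN1B and CDKN1C rose and CCND1, CCND3 and CDKN1A fell. In that comparison 37.7% of all genes were called, 19.2% higher and 18.5% lower. Among the 9, CCND1 alone was called in each subline, and it fell. As detailed below, other processing or leaving out an array changed which members were called in the sublines. Under median scaling CCND1 was called in neither of them. In ER3 3.76% of all genes were called, 2.01% higher and 1.74% lower, and in T15-2 8.43% were, 4.43% higher and 4% lower. The plot of the members by array shows the values of the 9 genes.

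**Figure D1:**
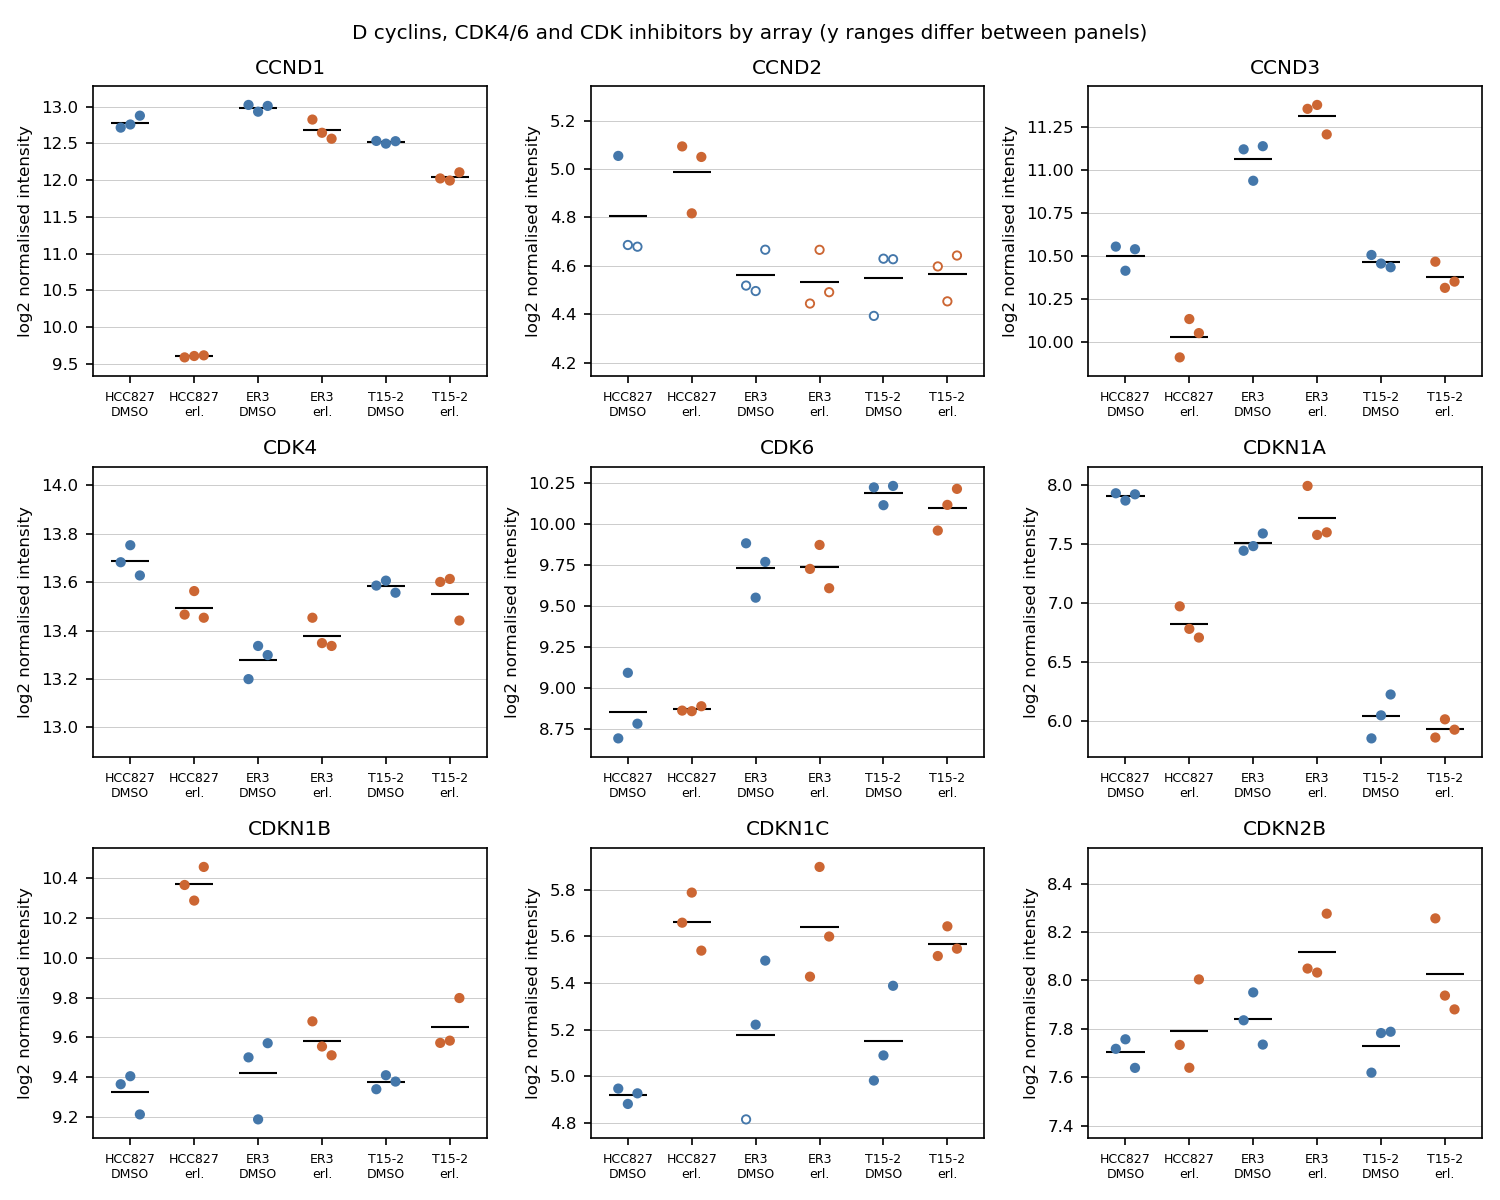
Log2 normalised intensity of the probe that stands for each of 9 genes on the 18 arrays, by line and treatment (erl., erlotinib). Points are arrays, bars are means of 3, open points are arrays on which the probe was not above background, and the y range differs between panels. CCND1 with erlotinib in HCC827 lies between 9.59 and 9.62, below every other array, while CDK6 is lower on the 6 HCC827 arrays than on the 12 of the sublines.

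CCND1, which encodes cyclin D1, read 12.71, 12.76 and 12.88 in HCC827 with DMSO and 9.59, 9.61 and 9.62 with erlotinib. The fall was 9.05-fold (-3.18 ± 0.08, adjusted p = 7.0e-16), and only 4 of the 11820 genes had a larger difference in either direction. In linear signal the mean went from 7472 to 771. ER3 read 13.02, 12.93 and 13.01 with DMSO and 12.82, 12.64 and 12.56 with erlotinib. T15-2 read 12.53, 12.50 and 12.53 with DMSO and 12.02, 11.99 and 12.11 with erlotinib. In both sublines the treated arrays lay below the untreated ones without overlap, and by far less than in HCC827. The difference was -0.31 ± 0.08 in ER3 (adjusted p = 0.043) and -0.48 ± 0.08 in T15-2 (adjusted p = 0.0014). The order of the group means ran from ER3 with DMSO (12.99) through HCC827 with DMSO (12.78), ER3 with erlotinib (12.68), T15-2 with DMSO (12.52) and T15-2 with erlotinib (12.04) to HCC827 with erlotinib (9.60). Of neighbours in that order only HCC827 with DMSO and ER3 with erlotinib overlapped.

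The call of CCND1 in ER3 was lost without ER3 with DMSO replicate 1 (adjusted p = 0.14) or replicate 3 (0.11), without ER3 with erlotinib replicate 2 (0.089) or replicate 3 (0.13), and when ER3 was fitted alone (0.25). With median scaling in place of quantile normalisation neither subline's fall was called (-0.20, adjusted p = 0.43, and -0.38, adjusted p = 0.11).

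The response of CCND1 differed between the lines. The change in ER3 minus that in HCC827 was 2.87 ± 0.12 (adjusted p = 2.0e-12), and for T15-2 it was 2.70 ± 0.12 (adjusted p = 6.2e-12). The fall was thus less deep in both sublines. The responses of T15-2 and ER3 differed by -0.17 ± 0.12 (adjusted p = 0.77, 95% interval -0.41 to 0.08), which did not pass the test. With erlotinib CCND1 was 8.41-fold higher in ER3 than in HCC827 (3.07 ± 0.08, adjusted p = 3.3e-16) and 5.41-fold higher in T15-2 (2.44 ± 0.08, adjusted p = 1.0e-14). With DMSO the difference of ER3 from HCC827 was 0.21 ± 0.08 (adjusted p = 0.062), and T15-2 was lower by a little (-0.26 ± 0.08, adjusted p = 0.020). The first of these was called without HCC827 with DMSO replicate 3 (adjusted p = 0.049) and with median scaling over kept probes (0.31, adjusted p = 0.010). It was also called with no background correction (0.039), the authors' values (0.039), no filter (0.044) or a stricter one (0.045), and a robust eBayes with a trend (0.035). The second was not called without HCC827 with DMSO replicate 3 (0.091) or T15-2 with DMSO replicate 2 (0.060). Nor was it called with median scaling over all probes (0.097) or over kept probes (-0.14, adjusted p = 0.25).

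CCND3, which encodes cyclin D3, fell in HCC827 and was highest in ER3. It read 10.56, 10.42 and 10.54 with DMSO and 9.91, 10.14 and 10.05 with erlotinib in HCC827 (-0.47 ± 0.09, adjusted p = 0.00034). In ER3 it read 11.12, 10.94 and 11.14 with DMSO and 11.35, 11.38 and 11.20 with erlotinib. The treated ER3 arrays were all above the untreated ones, but the difference of 0.25 ± 0.09 was not called (adjusted p = 0.13). T15-2 read 10.51, 10.46 and 10.44 with DMSO and 10.47, 10.32 and 10.35 with erlotinib (-0.09 ± 0.09, adjusted p = 0.62), and these groups overlapped. The change in ER3 minus that in HCC827 was 0.72 ± 0.13 (adjusted p = 0.00055). For T15-2 the same difference was 0.38 ± 0.13 (adjusted p = 0.052, 95% interval 0.12 to 0.65). It was called in 11 of the 23 alternatives run, among them the authors' processed values (adjusted p = 0.030), the compared groups fitted alone (0.045), median scaling (0.0079) and the fit without HCC827 with erlotinib replicate 2 (0.049). Among the 9 genes CCND3 also had the only unadjusted p below 0.05 for T15-2 against ER3 (-0.33 ± 0.13, adjusted p = 0.49).

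Between lines CCND3 was 1.47-fold higher in ER3 than in HCC827 with DMSO (0.56 ± 0.09, adjusted p = 6.6e-05) and 2.42-fold higher with erlotinib (1.28 ± 0.09, adjusted p = 6.2e-10). Median scaling ended the first of these calls (0.30, adjusted p = 0.092). T15-2 and HCC827 overlapped with DMSO (-0.04 ± 0.09, adjusted p = 0.79), and with erlotinib T15-2 was higher (0.34 ± 0.09, adjusted p = 0.0039). The means fell in the order ER3 with erlotinib, ER3 with DMSO, HCC827 with DMSO, T15-2 with DMSO, T15-2 with erlotinib and HCC827 with erlotinib, in which the middle 3 groups overlapped their neighbours among themselves.

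CCND2, which encodes cyclin D2, was close to background. Its 1 kept probe read between 4.39 and 5.09 over the 18 arrays and was above background on 4, all of them HCC827: 3 with erlotinib and 1 with DMSO. Its mean was 4.99 ± 0.15 (SD, n = 3) in HCC827 with erlotinib and 4.81 ± 0.21 (SD, n = 3) with DMSO, and these groups overlapped. The 4 subline groups had means between 4.53 and 4.56, with 0 of 12 arrays above background. Since this probe passed the filter through HCC827, the group in which it was higher, its own differences from that line are given as levels with no test. The other probe, on average the brighter of the pair, was above background on 2 arrays, 1 of HCC827 with DMSO and 1 of ER3 with erlotinib. With no filter on dim probes that probe stood for the gene, and with erlotinib it gave differences from HCC827 of -0.08 in ER3 (adjusted p = 0.69) and -0.11 in T15-2 (adjusted p = 0.52).

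CDK4, a kinase partner of the D cyclins, differed little. With DMSO it read 13.68, 13.75 and 13.63 in HCC827, 13.20, 13.34 and 13.30 in ER3 and 13.59, 13.61 and 13.56 in T15-2. With erlotinib it read 13.47, 13.56 and 13.45 in HCC827, 13.45, 13.35 and 13.34 in ER3 and 13.60, 13.61 and 13.44 in T15-2. HCC827 had lower values with erlotinib on all 3 arrays, a difference that was not called (-0.19 ± 0.08, adjusted p = 0.067). It was called with no background correction (0.043), the authors' values (0.043), no filter (0.044) or a stricter one (0.047), and a robust eBayes with a trend (0.033). ER3 with DMSO was 1.33-fold below HCC827 (-0.41 ± 0.08, adjusted p = 0.00057), whereas with erlotinib these lines overlapped (-0.11 ± 0.08, adjusted p = 0.27). The responses of ER3 and HCC827 differed by 0.29 ± 0.11, which was not called (adjusted p = 0.072, 95% interval 0.06 to 0.53). The alternatives just named called this difference too (adjusted p between 0.036 and 0.0497). So did the fit without ER3 with DMSO replicate 2 and T15-2 with erlotinib replicate 3 (0.042). T15-2 was above ER3 with DMSO (0.30 ± 0.08, adjusted p = 0.0067). In the order of group means HCC827 with DMSO stood first and apart, and each later group overlapped the next.

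CDK6, the other kinase of the pair, set the lines apart and did not pass the test for erlotinib in any of them. In HCC827 it read 8.69, 9.09 and 8.78 with DMSO and 8.86, 8.86 and 8.89 with erlotinib. In ER3 it read 9.88, 9.55 and 9.77 with DMSO and 9.73, 9.87 and 9.61 with erlotinib. T15-2 read 10.22, 10.11 and 10.23 with DMSO and 9.96, 10.12 and 10.21 with erlotinib. All 12 subline arrays were above all 6 of HCC827, and within a line treated and untreated arrays overlapped. With DMSO CDK6 was 1.84-fold higher in ER3 than in HCC827 (0.88 ± 0.11, adjusted p = 4.7e-06) and 2.52-fold higher in T15-2 (1.33 ± 0.11, adjusted p = 1.6e-08). With erlotinib the same differences were 0.87 ± 0.11 (adjusted p = 3.1e-06) and 1.23 ± 0.11 (adjusted p = 3.0e-08). T15-2 was above ER3 with DMSO by 0.46 ± 0.11 (adjusted p = 0.0037) and with erlotinib by 0.36 ± 0.11 (adjusted p = 0.019). The last call was lost without ER3 with erlotinib replicate 3 (adjusted p = 0.089), T15-2 with erlotinib replicate 2 (0.055) or replicate 3 (0.081). The changes with erlotinib were 0.01 in HCC827, 0.00 in ER3 and -0.09 in T15-2, each ± 0.11, and the 95% interval in HCC827 ran from -0.22 to 0.25.

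The CIP/KIP genes CDKN1A and CDKN1B went in opposite directions in HCC827, and their promoters are shown for that reason. The sequences run from 250 bases before to 50 after the start site and are those of RefSeq on GRCh38.p14. Capitals mark every match, on either strand, to the 5 motifs searched: the GC box GGGCGG, the E-box CACGTG, the CCAAT box CCAAT, the AP-1 motif TGANTCA and the forkhead motif GTAAACA.
CDKN1A, chr6:36678464-36678763, plus strand: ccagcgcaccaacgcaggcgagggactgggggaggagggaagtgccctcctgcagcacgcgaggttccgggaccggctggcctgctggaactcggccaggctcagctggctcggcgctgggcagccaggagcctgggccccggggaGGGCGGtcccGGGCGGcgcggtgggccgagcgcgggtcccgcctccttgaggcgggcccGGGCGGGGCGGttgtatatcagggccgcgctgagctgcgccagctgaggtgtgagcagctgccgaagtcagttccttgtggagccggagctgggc
CDKN1B, chr12:12717118-12717417, plus strand: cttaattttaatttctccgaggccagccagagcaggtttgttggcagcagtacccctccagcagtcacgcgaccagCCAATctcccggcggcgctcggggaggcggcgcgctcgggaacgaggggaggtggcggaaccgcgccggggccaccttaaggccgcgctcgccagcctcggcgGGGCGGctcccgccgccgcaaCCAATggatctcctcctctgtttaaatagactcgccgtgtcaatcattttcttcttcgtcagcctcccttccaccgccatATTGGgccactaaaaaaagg

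The CDKN1A window held 4 GC boxes, starting at -104, -94, -45 and -40 from the start site, of which the last 2 share 1 base, and no match to the other 4 motifs. The CDKN1B window held 1 GC box at -71 and 3 CCAAT boxes, at -174, at -50 and, on the reverse strand, at 31. The share of all 35116 promoter windows with a match was 45% for the GC box, 34.6% for the CCAAT box, 7.71% for the AP-1 motif, 7.26% for the E-box and 3.42% for the forkhead motif. Windows of 6 of the 9 genes could be scanned. GC boxes were common in these windows. They numbered 3 for CDK4, 0 and 3 for CDK6, 2 for CDKN2B and 0, 4 and 5 for CCND3. CCAAT boxes numbered 1, 1 and 0 in the CCND3 windows. The E-box was found 3 times in the window of CDK4 and 1 time in a window of CDK6, and the forkhead motif 1 time in a window of CCND3. A match is a description of letters and not a binding site.

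CDKN1A, which encodes p21, an inhibitor that p53 induces, fell in HCC827 alone among the 3 lines and was lowest in T15-2. HCC827 read 7.93, 7.87 and 7.92 with DMSO and 6.97, 6.78 and 6.71 with erlotinib, a 2.12-fold fall (-1.09 ± 0.11, adjusted p = 4.0e-07). ER3 read 7.44, 7.48 and 7.59 with DMSO and 7.99, 7.58 and 7.60 with erlotinib (0.22 ± 0.11, adjusted p = 0.31). T15-2 read 5.85, 6.05 and 6.23 with DMSO and 5.86, 6.02 and 5.93 with erlotinib (-0.11 ± 0.11, adjusted p = 0.64). The groups overlapped in both sublines, and the test of the difference passed in both. The change in ER3 minus that in HCC827 was 1.30 ± 0.16 (adjusted p = 1.5e-05), and for T15-2 it was 0.98 ± 0.16 (adjusted p = 0.00049). A second CDKN1A probe was above background on 0 of 18 arrays.

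With DMSO CDKN1A was 1.32-fold lower in ER3 than in HCC827 (-0.40 ± 0.11, adjusted p = 0.010) and 3.64-fold lower in T15-2 (-1.86 ± 0.11, adjusted p = 1.4e-10). T15-2 was also below ER3 (-1.46 ± 0.11, adjusted p = 1.1e-08). With erlotinib ER3 was above HCC827 by 0.90 ± 0.11 (adjusted p = 2.6e-06), while T15-2 was still below it (-0.89 ± 0.11, adjusted p = 3.4e-06). T15-2 with erlotinib was 3.45-fold below ER3 with erlotinib (-1.79 ± 0.11, adjusted p = 5.2e-10). The 3 highest groups were HCC827 with DMSO, ER3 with erlotinib and ER3 with DMSO, each overlapping the next. HCC827 with erlotinib stood apart below these, and the T15-2 groups overlapped at the bottom.

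CDKN1B, which encodes p27, rose in HCC827. The brighter of its probes read 9.37, 9.41 and 9.21 with DMSO and 10.37, 10.29 and 10.46 with erlotinib, a 2.06-fold rise (1.04 ± 0.10, adjusted p = 1.8e-07). In ER3 it read 9.50, 9.19 and 9.57 with DMSO and 9.68, 9.55 and 9.51 with erlotinib (0.16 ± 0.10, adjusted p = 0.40), with overlap. In T15-2 it read 9.34, 9.41 and 9.38 with DMSO and 9.57, 9.58 and 9.80 with erlotinib, without overlap but not called (0.28 ± 0.10, adjusted p = 0.11). With DMSO the 3 lines overlapped, at means of 9.33, 9.42 and 9.38. With erlotinib ER3 was below HCC827 (-0.79 ± 0.10, adjusted p = 3.6e-06), and so was T15-2 (-0.72 ± 0.10, adjusted p = 1.2e-05). HCC827 with erlotinib thus stood first and apart in the order of means, and each of the other 5 groups overlapped the next.

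The change of CDKN1B in ER3 minus that in HCC827 was -0.88 ± 0.15 (adjusted p = 0.00030), and for T15-2 it was -0.77 ± 0.15 (adjusted p = 0.0017). These differences rested on the brighter probe. The other CDKN1B probe read 8.92, 9.07 and 8.95 with DMSO and 9.84, 9.71 and 9.82 with erlotinib in HCC827. It read 8.94, 9.17 and 8.98 with DMSO and 9.56, 9.28 and 9.43 with erlotinib in ER3, and 8.99, 8.90 and 8.86 with DMSO and 9.50, 9.49 and 9.12 with erlotinib in T15-2. In a limma fit of 19931 probes it gave a rise of 0.81 ± 0.11 in HCC827 (adjusted p = 9.9e-06) and of 0.45 ± 0.11 in T15-2 (adjusted p = 0.018), and a difference of 0.40 ± 0.11 in ER3 (adjusted p = 0.060). On that probe the responses of the sublines differed from that of HCC827 by -0.41 ± 0.15 (adjusted p = 0.071) and -0.36 ± 0.15 (adjusted p = 0.16), which were not called. Median scaling of the brighter probe also ended both calls (-0.45, adjusted p = 0.079, and -0.35, adjusted p = 0.21).

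CDKN1C, which encodes p57, was dim and had higher means with erlotinib in each line. HCC827 read 4.95, 4.88 and 4.93 with DMSO and 5.66, 5.79 and 5.54 with erlotinib, a 1.67-fold rise (0.74 ± 0.15, adjusted p = 0.00047). ER3 read 4.82, 5.22 and 5.50 with DMSO, 2 of these 3 above background, and 5.43, 5.90 and 5.60 with erlotinib (0.46 ± 0.15, adjusted p = 0.082). T15-2 read 4.98, 5.09 and 5.39 with DMSO and 5.52, 5.64 and 5.55 with erlotinib (0.42 ± 0.15, adjusted p = 0.087). The ER3 groups overlapped and the T15-2 groups did not. The response of ER3 differed from that of HCC827 by -0.28 ± 0.21 (adjusted p = 0.36) and that of T15-2 by -0.33 ± 0.21 (adjusted p = 0.32), so a difference between lines was not shown. Without ER3 with DMSO replicate 3 the ER3 change was called (0.63, adjusted p = 0.032), and without its replicate 1 ER3 with DMSO was above HCC827 (0.44, adjusted p = 0.022) where all arrays gave 0.26 ± 0.15 (adjusted p = 0.18).

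CDKN2B encodes p15, an INK4 inhibitor that TGF-beta induces. Its brightest probe read 7.72, 7.76 and 7.64 with DMSO and 7.73, 7.64 and 8.00 with erlotinib in HCC827 (0.09 ± 0.11, adjusted p = 0.59). ER3 read 7.84, 7.95 and 7.74 with DMSO and 8.05, 8.03 and 8.28 with erlotinib (0.28 ± 0.11, adjusted p = 0.18), and T15-2 read 7.62, 7.78 and 7.79 with DMSO and 8.26, 7.94 and 7.88 with erlotinib (0.30 ± 0.11, adjusted p = 0.12). Treated and untreated arrays did not overlap in the sublines and did in HCC827. With erlotinib ER3 was above HCC827 by 0.33 ± 0.11 (adjusted p = 0.025). That call was lost without HCC827 with erlotinib replicate 1 (adjusted p = 0.077) or replicate 2 (0.12), or without ER3 with erlotinib replicate 3 (0.12). T15-2 with erlotinib was called above HCC827 only without HCC827 with erlotinib replicate 3 (0.34, adjusted p = 0.031) and had 0.23 ± 0.11 with all arrays (adjusted p = 0.11).

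A second CDKN2B probe, annotated to another transcript of the gene, gave other calls in the fit of single probes. It read a mean of 7.03 with DMSO and 7.41 with erlotinib in HCC827, a rise of 0.37 ± 0.11 (adjusted p = 0.010), where the brightest probe was not called. It was higher in ER3 than in HCC827 with DMSO (0.33 ± 0.11, adjusted p = 0.022). It was lower in T15-2 than in ER3 with DMSO (-0.33 ± 0.11, adjusted p = 0.026), although those arrays overlapped. The third probe was above background on 3 of 18 arrays. The plot of the probes of both inhibitors shows these values.

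**Figure D2:**
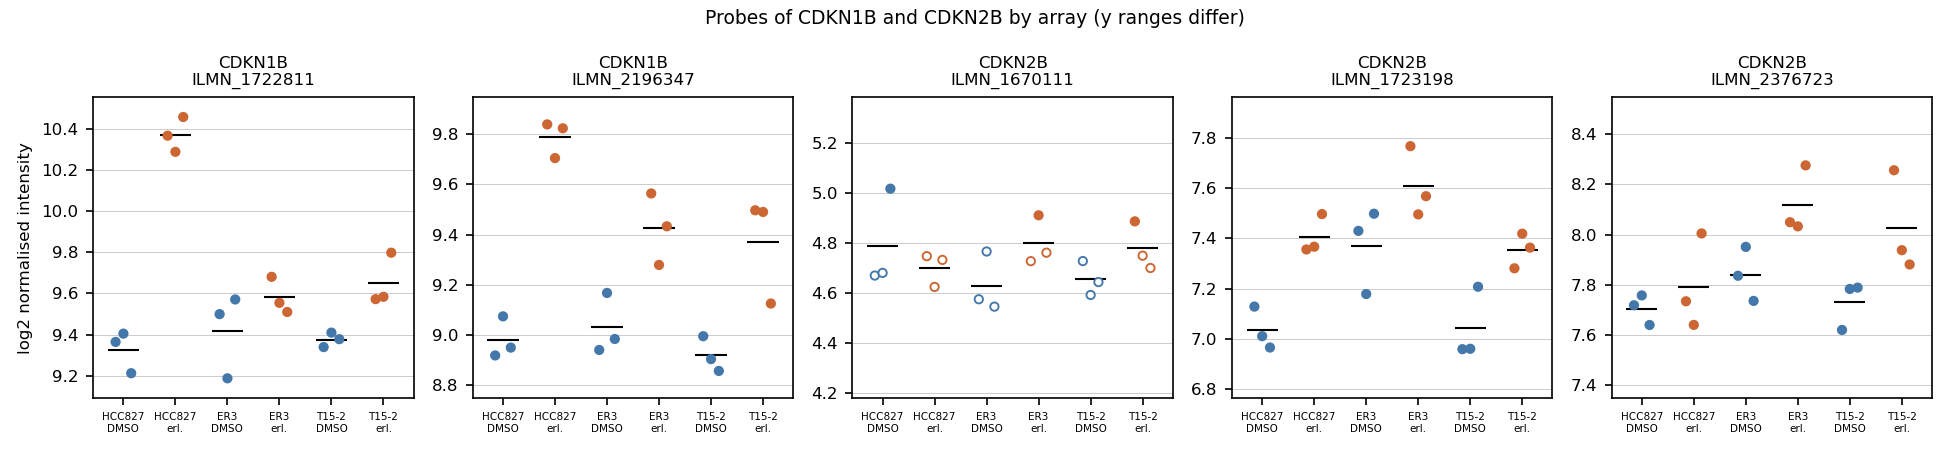
Log2 normalised intensity of the 2 probes of CDKN1B and the 3 probes of CDKN2B on the 18 arrays, by line and treatment. Points are arrays, bars are means of 3, open points are not above background, and the y range differs between panels. Both CDKN1B probes are highest in HCC827 with erlotinib, and the middle CDKN2B probe in HCC827 has a mean of 7.03 with DMSO and 7.41 with erlotinib.

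The changes with erlotinib stand side by side in the plot of changes by line. These comparisons use separate samples, so each line has its own controls. The median change of the 9 genes was 0.01 in HCC827, 0.16 in ER3 and -0.03 in T15-2, where all genes had 0.01 in each.

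**Figure D3:**
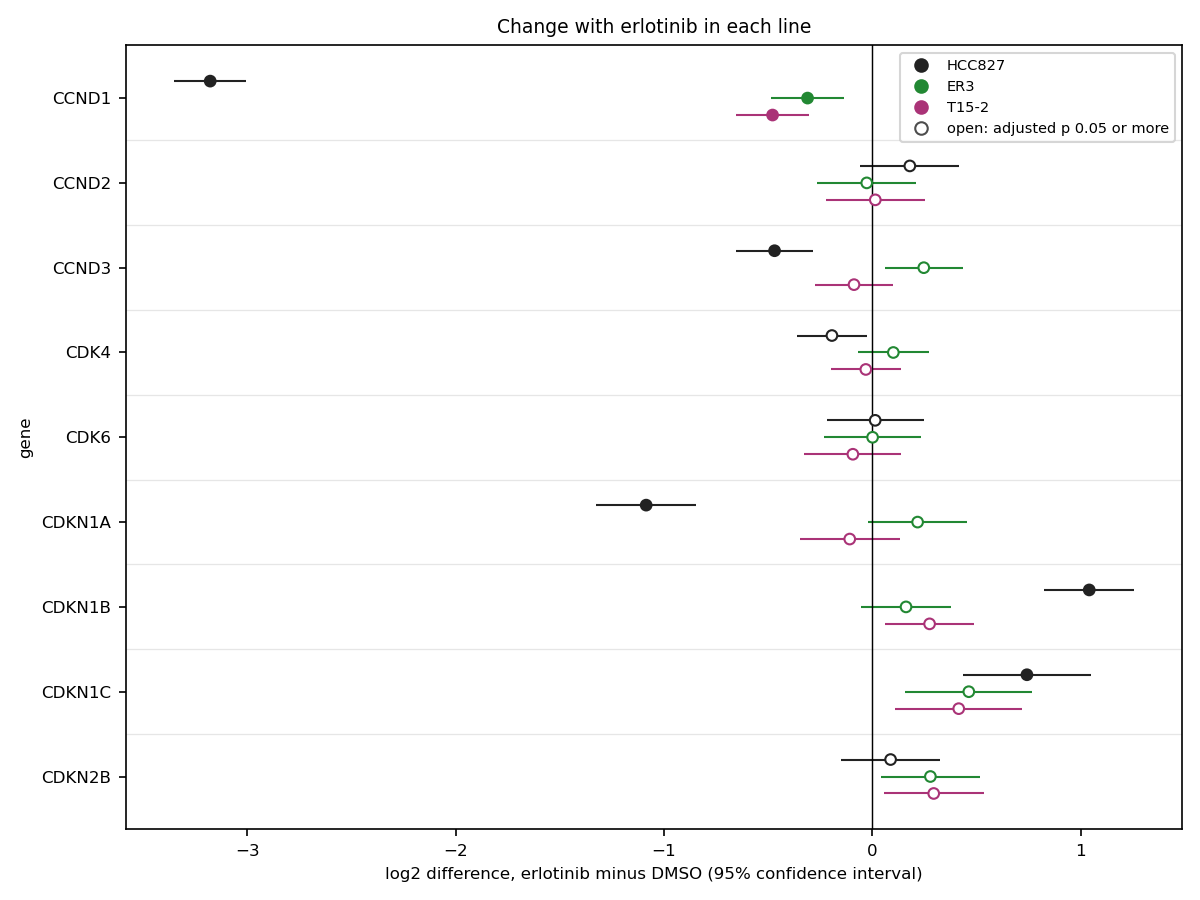
Log2 difference between erlotinib and DMSO for 9 genes in HCC827, ER3 and T15-2. Points are estimates of the limma fit with 95% confidence intervals, 3 arrays a group, and open points have an adjusted p of 0.05 or more. CCND1 has -3.18 in HCC827 against -0.31 and -0.48 in the sublines.

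The differences of response gave 4 calls of 9 in ER3, for CCND1, CCND3, CDKN1A and CDKN1B, where 22% of all genes were called (11.6% higher and 10.4% lower). In T15-2 they gave 3 of 9, for CCND1, CDKN1A and CDKN1B, where 13.1% were (7.17% higher and 5.9% lower). These share the HCC827 samples, so their likeness is no separate evidence. Between T15-2 and ER3 the responses gave 0 calls of 9 in limma, with 1 of 9 at an unadjusted p below 0.05, against 0.0338% of all genes called and 947 genes at an unadjusted p below 0.05.

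Levels were also compared between the lines. With DMSO 4 of 9 differed between ER3 and HCC827, where 35.1% of all genes did (16% higher and 19% lower): CCND3 and CDK6 were higher and CDK4 and CDKN1A lower in ER3. Between T15-2 and HCC827 3 of 9 differed (32.2% of all genes, 15.9% higher and 16.3% lower), with CDK6 higher and CCND1 and CDKN1A lower in T15-2. CDK6 was thus higher and CDKN1A lower in each subline. Between T15-2 and ER3 5 of 9 differed (33.4% of all genes, 17.8% higher and 15.5% lower), namely CDK4 and CDK6, higher in T15-2, and CCND1, CCND3 and CDKN1A, lower. With erlotinib 7 of 9 differed between ER3 and HCC827 (44.6% of all genes, 21.6% higher and 23% lower). Between T15-2 and HCC827 6 of 9 did (42.6%, 21.9% higher and 20.7% lower), and between T15-2 and ER3 4 of 9 did (29.3%, 15.8% higher and 13.5% lower). The counts of 7 and 6 each include CCND2, as a gene lower in the subline. It passed the filter through HCC827, so nothing is read from it or from setting these counts against the shares. In the plot of sublines against HCC827 the points for CCND1 and CDKN1B lie near 0 with DMSO and far from it with erlotinib, while those of CDK6 stay in place.

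**Figure D4:**
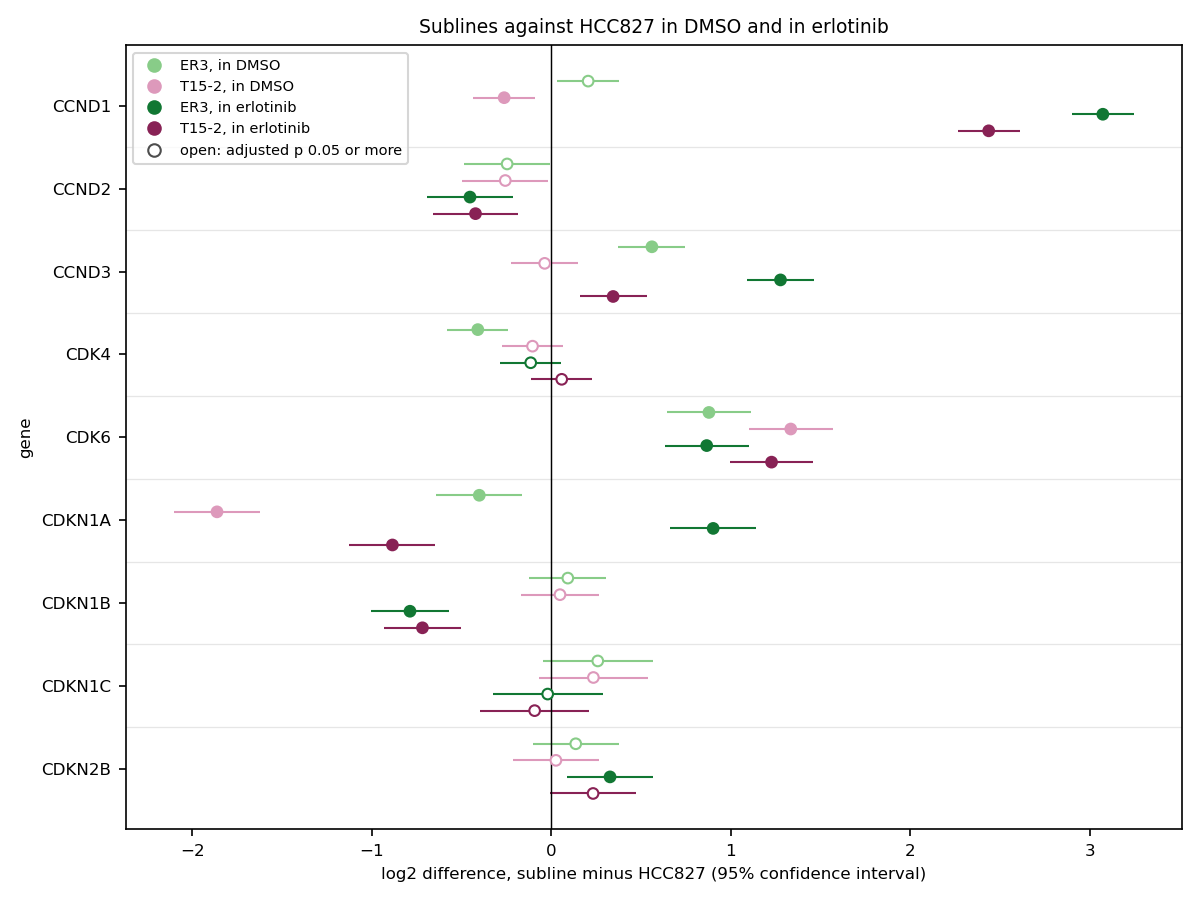
Log2 difference of ER3 or T15-2 from HCC827 for 9 genes, in DMSO (light) and in erlotinib (dark). Points are estimates of the limma fit with 95% confidence intervals, 3 arrays a group, and open points have an adjusted p of 0.05 or more. For CDK6 the ER3 points lie at 0.88 and 0.87 and the T15-2 points at 1.33 and 1.23, while CDKN1A in ER3 goes from -0.40 in DMSO to 0.90 in erlotinib. The CCND2 points rest on a probe above background on HCC827 arrays alone.

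Genes around the same step of the cell cycle were read as lists. Each count stands beside the share of all genes called. With erlotinib that was 18.5% lower and 19.2% higher in HCC827. In ER3 it was 1.74% lower and 2.01% higher, and in T15-2 4% lower and 4.43% higher. Of 21 E2F-regulated replication genes 19 were tested. With erlotinib HCC827 had 17 of them lower and 0 higher at a median of -1.04, where the median of all genes was 0.01 in each line. MCM10, a replication initiation factor, fell by 2.02 ± 0.15 (adjusted p = 2.8e-09). UHRF1, which keeps DNA methylation through replication, fell in HCC827 (-1.90 ± 0.10, adjusted p = 2.4e-11), in T15-2 (-1.05 ± 0.10, adjusted p = 2.1e-06) and in ER3 (-0.58 ± 0.10, adjusted p = 0.0039). The ER3 call was lost with median scaling (adjusted p = 0.14) or when ER3 was fitted alone (0.092). In T15-2 16 of the 19 fell, with a median of -0.68, and under median scaling 10 did. In ER3 7 fell, with a median of -0.30. That ER3 count was 2 without ER3 with DMSO replicate 1, 4 without ER3 with erlotinib replicate 1, 3 without its replicate 2, and 0 when ER3 was fitted alone or under median scaling. The change of ER3 and of T15-2 minus that of HCC827 was higher for 16 and 10 of the 19, and lower for 0. Of all genes 11.6% and 7.17% were higher. With DMSO 16 of the 19 were lower in ER3 than in HCC827 (median -0.64), among them GINS2, part of the replicative helicase (-1.33 ± 0.10, adjusted p = 2.6e-09), and PCNA, the sliding clamp of DNA polymerase (means of 9.80 and 10.81, adjusted p = 4.5e-07). Between T15-2 and HCC827 with DMSO 3 were higher and 4 lower (median -0.15). In these comparisons with DMSO 19% of all genes were lower in ER3, and in T15-2 15.9% were higher and 16.3% lower.

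Of 12 genes for RB proteins and E2F factors 11 were tested, and in HCC827 with erlotinib 7 fell and 1 rose (median -0.51). Of all genes 18.5% fell and 19.2% rose there. The repressor E2F7 fell by 1.10 ± 0.11 (adjusted p = 2.5e-07) and the activator E2F2 fell by 0.74 ± 0.10 (adjusted p = 1.1e-05). RBL2, which encodes the pocket protein p130 of resting cells, rose by 0.73 ± 0.10 (adjusted p = 1.6e-05). E2F2 was also lower in ER3 than in HCC827 with DMSO (-0.99 ± 0.10, adjusted p = 3.7e-07), and E2F7 was higher in T15-2 (0.81 ± 0.11, adjusted p = 1.3e-05). With erlotinib 1 of the 11 fell in ER3 (3.76% of all genes called) and 1 fell and 1 rose in T15-2 (8.43%). These counts of 1 were not kept in each fit that left out an array: in ER3 the fall ranged from 0 to 2 genes and was 0 under either median scaling, and in T15-2 the fall ranged from 1 to 3 and the rise from 0 to 1.

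Of 10 genes for cyclins E and A, CDK2 and its regulators 9 were tested, and 7 fell and 0 rose in HCC827 with erlotinib (median -0.45). There 18.5% of all genes fell. CDC25A, a phosphatase that activates CDK2, fell by 1.51 ± 0.09 in HCC827 (adjusted p = 1.9e-10) and fell by 0.85 ± 0.09 in T15-2 (adjusted p = 1.2e-05). In ER3 it fell by 0.61 ± 0.09 (adjusted p = 0.0011), a call lost when ER3 was fitted alone (adjusted p = 0.10), with median scaling (0.079) and with the mean of its probes (0.063). CCNE1, which encodes cyclin E1, fell by 0.72 ± 0.12 in HCC827 (adjusted p = 6.5e-05) and was higher in T15-2 than in HCC827 with DMSO (0.75 ± 0.12, adjusted p = 5.5e-05). In T15-2 with erlotinib 6 of the 9 fell and 2 rose. The 6 became 3 without T15-2 with DMSO replicate 1 or 2, 2 without T15-2 with erlotinib replicate 1 and 3 without its replicate 2, and the 2 became 1 without any of these 4. Median scaling left 1 of the 6, and the fit of T15-2 alone left 3. CCNA1, which encodes a cyclin A, was lower than in HCC827 with DMSO in both ER3 (-0.74 ± 0.11, adjusted p = 4.0e-05) and T15-2 (-0.80 ± 0.11, adjusted p = 1.8e-05). In ER3 2 of the 9 fell with erlotinib, and 1 did without ER3 with DMSO replicate 1 or 3 or ER3 with erlotinib replicate 1 or 2. The count was 0 under median scaling or when ER3 was fitted alone.

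Of 11 genes for the turnover of cyclin D and p27 9 were tested, and 4 fell in HCC827 with erlotinib (median -0.25). These 4 of 9 stand beside 37.7% of all genes called, 18.5% lower. SKP2, the receptor of the ubiquitin ligase that marks p27 for destruction, fell by 0.77 ± 0.12 (adjusted p = 6.5e-05), and CUL1, the scaffold of that ligase, fell by 0.71 ± 0.11 (adjusted p = 3.4e-05). SKP2 and CKS1B are also in the list of cyclins E and A, so the counts of these lists are not separate. The count of 4 was 2 without HCC827 with DMSO replicate 3 or HCC827 with erlotinib replicate 2. CUL1 was higher in T15-2 than in HCC827 with DMSO (0.88 ± 0.11, adjusted p = 3.6e-06). In ER3 0 of the 9 were called with erlotinib, and in T15-2 2 fell, or 1 when any of its 6 arrays was left out and 0 under median scaling or when T15-2 was fitted alone. The 3 genes of the CDK-activating kinase gave 1 call in HCC827, a rise of CDK7 by 0.88 ± 0.11 (adjusted p = 4.0e-06), and 0 in ER3 and T15-2. The 1 of 3 in HCC827 also stands beside 37.7% of all genes called.

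Of 16 p53 targets, the group to which CDKN1A belongs, 11 were tested, and in HCC827 with erlotinib 3 rose and 2 fell (median 0.05). These 5 of 11 stand beside 37.7% of all genes called, and under median scaling 1 rose and 3 fell. TP53INP1, a gene of autophagy and cell death, rose by 1.26 ± 0.13 (adjusted p = 3.3e-07), and the other risers were XPC (0.46, adjusted p = 0.00087) and SESN1 (0.43, adjusted p = 0.041). AEN, an exonuclease of apoptosis, fell by 2.50 ± 0.10 (adjusted p = 4.4e-13), and GADD45A, a stress sensor, fell by 0.46 ± 0.10 (adjusted p = 0.0014). In T15-2 AEN fell by 0.71 ± 0.10 (adjusted p = 0.00020) and TP53INP1 rose (0.74, adjusted p = 0.0017), while 4 targets rose without T15-2 with erlotinib replicate 3. In ER3 0 of the 11 were called, and 1 rose without ER3 with DMSO replicate 2 or ER3 with erlotinib replicate 3. TP53I3, an oxidoreductase, was lower than in HCC827 with DMSO in ER3 (-1.02 ± 0.12, adjusted p = 2.2e-06) and in T15-2 (-0.98 ± 0.12, adjusted p = 3.8e-06). With DMSO 4 of the 11 targets were lower and 0 higher in ER3, where 19% of all genes were lower. In T15-2 3 were lower and 2 higher (median -0.01), beside 16.3% and 15.9% of all genes. Of 5 other CDK inhibitors and partners 4 were tested, and 2 rose in HCC827, 0 in ER3 and 0 in T15-2. Of all genes 19.2%, 2.01% and 4.43% rose. CDKN3, a phosphatase of CDK2, was 1 of the 2 (0.32 ± 0.09, adjusted p = 0.0066), a call lost with median scaling over all probes (0.07, adjusted p = 0.79) or over kept probes (0.18, adjusted p = 0.16). The other was CDK5, itself a kinase and not an inhibitor (0.39, adjusted p = 0.048). The count of 2 was 1 without HCC827 with DMSO replicate 1 or 2, or without any 1 of the HCC827 arrays with erlotinib, and 0 under either median scaling.

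**Figure D5:**
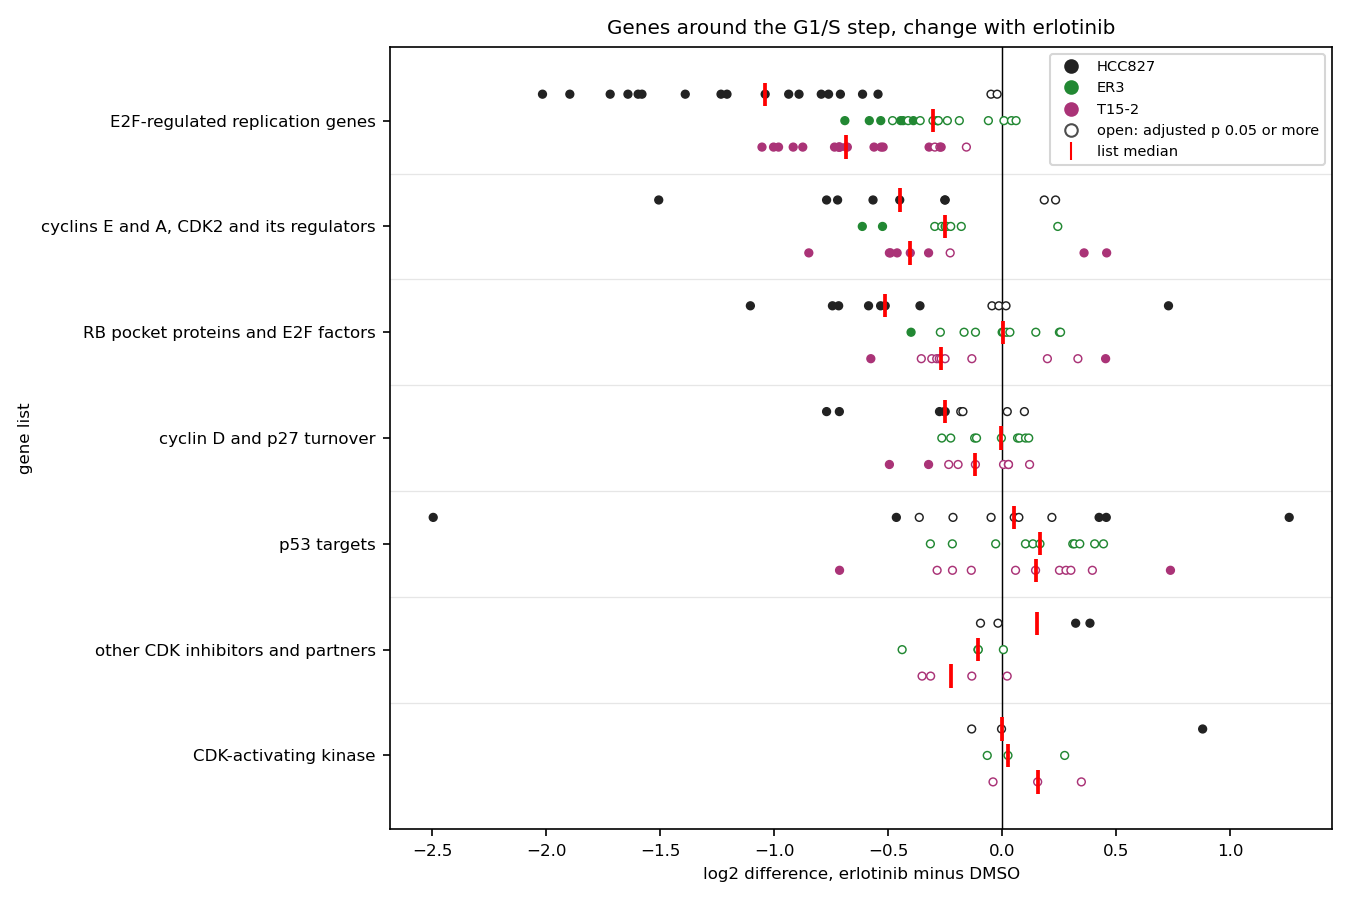
Log2 difference between erlotinib and DMSO for the tested genes of 7 lists in HCC827, ER3 and T15-2. Points are genes, filled where the adjusted p is below 0.05, and red bars are list medians. The replication genes have medians of -1.04, -0.30 and -0.68 in the 3 lines.

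The genes most like a member over the 6 group means were sought among 1753 genes whose means spanned at least 1 log2. Like CCND1 were NANP (r = 0.991), ETV4 (0.989), RIOK1 (0.989), DUSP6 (0.986) and LYAR (0.986). ETV4 is a transcription factor and DUSP6 a phosphatase of ERK, and their changes in HCC827 were -1.34 and -4.08. In ER3 these were -0.14 and 0.22, where CCND1 had -0.31, and in T15-2 -0.14 and -0.67, where it had -0.48. Like CDKN1A were RSAD2 (r = 0.996), GALNT6 (0.994), GBP1 (0.973), CDS1 (0.966) and LAD1 (0.963). RSAD2 and GBP1 are interferon-induced genes, and their changes in HCC827 were -0.88 and -0.76. The genes like CDKN1B were NUPR1 (r = 0.997), HFM1 (0.992), CYP1A2 (0.990), SLC35D2 (0.988) and YPEL2 (0.984), whose changes in HCC827 lay between 1.08 and 2.54. These correlations are descriptions over 6 points from shared arrays. For CCND1 the mean of HCC827 with erlotinib (9.60) lay far from the other groups (12.04 to 12.99). A high r there says little of likeness among those other groups.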

How the data were processed

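Groups came from the sample labels. The authors deposited, before normalization, a linear intensity and a detection p-value for each probe. Their processed intensity values, also deposited, served as an alternative. The submitters' processing notes name BeadStudio. Background correction, quantile normalization and log2 used the neqc function (offset 16) of limma, version 3.58.1, under R version 4.3.3. A probe was kept if above background, at 0.05, on 3 or more arrays (19931 probes). Platform symbols were updated through RefSeq. 28093 probes had 1 symbol, 13 several and 20697 none. The brightest kept probe stood for its gene (11820 genes). A limma model of 6 group means gave 12 contrasts, each adjusted by Benjamini-Hochberg. The fit was tested on simulated data. Alternatives were no background correction, median scaling, the authors' values, no or a stricter filter, probes averaged per gene, a fit of only the groups compared, a robust eBayes with a trend, a replicate block and each array left out.

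Named genes were the members, up to 3 genes of a list with the largest change in a contrast, and 5 pattern neighbours for CCND1, CDKN1A and CDKN1B. The called risers of the p53 targets and of the other CDK inhibitors and partners in HCC827 were also named. TP53INP1, XPC, SESN1 and CDK5 were not followed singly through the alternatives. Members and lists were chosen with earlier results of these data known. The labels do not say that replicate numbers pair the samples. No chip block was fitted, as the sources used here name no BeadChip for an array. The number of arrays limits the precision.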

Additional observations from a re-analysis of the deposited data

Results flagged for a closer look

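A set of 7 differences of response passed the test of the difference itself, the change with erlotinib in a subline minus that in HCC827. In ER3 these were CCND1 (2.87 ± 0.12), CCND3 (0.72 ± 0.13), CDKN1A (1.30 ± 0.16) and CDKN1B (-0.88 ± 0.15). In T15-2 they were CCND1 (2.70 ± 0.12), CDKN1A (0.98 ± 0.16) and CDKN1B (-0.77 ± 0.15). Both CDKN1B differences rested on the brighter probe. They were not called on the other CDKN1B probe, nor under median scaling over all probes. For CDKN1A the changes were -1.09 in HCC827, 0.22 in ER3 and -0.11 in T15-2, and the level of T15-2 with DMSO differed from that of HCC827 by -1.86. The contrasts of both sublines share the HCC827 arrays.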

How the results depend on the processing

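Over 108 differences of the members and 1986 alternative fits of them, 1843 kept direction and side of the threshold, 25 lost a call, 39 gained one, 79 changed the sign of a difference not called in either fit, and 0 reversed a call. CCND1, CDKN1A and CDKN1B in HCC827 with erlotinib were called in every alternative run, as were CDK6 of each subline against HCC827 and the response differences of CCND1 and CDKN1A. The count of members called with erlotinib in ER3 was 1 (CCND1, lower), and 0 when the compared groups were fitted alone or with the replicate block. Leaving out an array gave 0 to 1. Under median scaling CCND1 was not called in ER3, and CDKN1C was called higher (0.56, adjusted p = 0.039). The same swap occurred without ER3 with DMSO replicate 3. In T15-2 the count was 1 (CCND1, lower). It was 3 with the mean of a gene's probes, where CDKN1B (0.36, adjusted p = 0.0064) and CDKN2B (0.24, adjusted p = 0.049) were added. Under median scaling CCND1 was not called in T15-2, and CDKN1B was called higher (0.44, adjusted p = 0.048). The other counts of members stayed within 1.5 times. With the authors' processed values 4 differences near the threshold were called, namely CDK4 in HCC827 with erlotinib (adjusted p = 0.043), CDK4 in its ER3 response difference (0.045), CCND3 in its T15-2 response difference (0.030) and CCND1 of ER3 against HCC827 in DMSO (0.039).

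The replicate numbers were given by the labels as a series number only. Of 45 pairs of same-numbered arrays 7 had deviations correlated above 0.1 (range -0.40 to 0.27), and in 12 the same number was the best match. No pairing was labelled or seen, but deviations from means of 3 arrays cannot exclude one. With the replicate block the fall of CCND1 in ER3 had an adjusted p of 0.062, and no other call of a member changed. Calls of list genes changed too. The fall of E2F2 in ER3 had an adjusted p of 0.055 (0.038 without the block), and 5 replication genes fell in ER3 against 7.

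For all genes with erlotinib, ER3 had 444 calls, 14 when fitted alone, 133 to 589 with an array left out and 847 without both ER3 with DMSO replicate 2 and T15-2 with erlotinib replicate 3, a fit chosen after seeing the data. T15-2 had 997, 443 to 1149 with an array left out and 542 with median scaling. The difference of response of T15-2 from HCC827 had 1545, 961 to 2026 with an array left out and 2397 without both arrays, and that from ER3 had 4 and between 0 and 16.

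Median scaling used the median of all probes, most of them below background. The median gene's difference then reached 0.25, for the response of ER3 minus that of HCC827 (quantile -0.008). Over the kept probes, a setting added after seeing the data, it reached 0.061, for ER3 against HCC827 in DMSO (quantile -0.016). Genes called higher and lower with scaling over all probes were 929 and 2673 for HCC827 with erlotinib (quantile 2271 and 2187). They were 307 and 11 for ER3 with erlotinib (quantile 238 and 206) and 474 and 68 for T15-2 with erlotinib (quantile 524 and 473). They were 489 and 3865 for ER3 against HCC827 in DMSO (quantile 1895 and 2250), 548 and 2343 for T15-2 against HCC827 in DMSO (quantile 1884 and 1927) and 1871 and 824 for T15-2 against ER3 in DMSO (quantile 2109 and 1838). They were 2893 and 1403 for T15-2 against HCC827 in erlotinib (quantile 2594 and 2444), 1582 and 833 for T15-2 against ER3 in erlotinib (quantile 1873 and 1594) and 2631 and 216 for the response of ER3 minus that of HCC827 (quantile 1372 and 1230). They were 1828 and 120 for the response of T15-2 minus that of HCC827 (quantile 848 and 697). Over the kept probes they were 144 and 198 for ER3 with erlotinib (quantile 238 and 206) and 2493 and 1961 for ER3 against HCC827 in DMSO (quantile 1895 and 2250). The CDKN1B response differences lost under the first were called under the second. The CCND2 probe was above background on 4 of 18 arrays, and the CDKN1C probe, above background on 17, had the largest standard error of the 9 genes (0.15 for a difference of 2 groups).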
